A study of Mus musculus with 8 samples.

Results

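Among the 47643 named genes of the bone marrow mesenchymal stem cell (MSC) expression table, 35 genes of sterol and fatty acid metabolism were examined. They were taken by gene symbol from a list chosen with earlier results of these data known. Of the 35 genes, 29 make sterols and fatty acids or steer the SREBP transcription factors that drive that synthesis, and 6 belong to the LXR arm that exports cholesterol. All 35 passed the filter on low counts. The RNA-seq samples were MSCs flushed from the tibiae and femurs of C57BL/6 mice, with 2 libraries from Mettl3fl/fl control mice, which the labels call wild type (WT), and 2 from Prx1-Cre;Mettl3fl/fl mice, labelled cKO. Both groups carried the floxed Mettl3 alleles, and both were held for 2 days in osteogenic medium, which contained dexamethasone (100 nM), ascorbic acid (50 µg/ml) and β-glycerophosphate (5 mM). Prx1-Cre is active in limb bud mesenchyme and its descendants, so cells of other origin in the culture would keep Mettl3. The m6A map came from wild-type MSCs in the same medium, with 2 input and 2 immunoprecipitated libraries behind 1 list of peaks. The question put to the data was how the sterol and lipid genes stood in MSCs of mice with a conditional deletion of Mettl3, the catalytic subunit of the m6A methyltransferase, and which of them carried m6A in wild-type cells.

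Cells build cholesterol from acetyl-CoA through mevalonate, farnesyl diphosphate, squalene and lanosterol. When membrane sterol is low, SCAP escorts the SREBP precursors out of the endoplasmic reticulum, and the released SREBP fragments switch on nearly every enzyme of the route together with the fatty acid enzymes, while INSIG proteins hold SCAP back when sterol is plentiful. When oxysterols accumulate, the LXR receptors switch on the exporters ABCA1 and ABCG1, apolipoprotein E and the ubiquitin ligase MYLIP. Bone marrow stromal cells, osteoblasts and macrophages all run both arms, and macrophages are known for a strong LXR response.

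Each RNA-seq library held from 23948219 to 34069228 estimated counts, and 15327 genes were tested. Levels are given as CPM, counts scaled to library size by TMM, unless TPM, a level per transcript length, is named. Mettl3 itself read 17.6 and 16.9 CPM in WT and 17.5 and 16.3 CPM in cKO, a log2 fold change of -0.03 (SE 0.09, adjusted p = 0.824, edgeR quasi-likelihood test with Benjamini-Hochberg adjustment). So whole-gene counts did not separate the genotypes or show the deletion. They include the exons that the floxed alleles leave in place and any cells in which Prx1-Cre was not active. The share of either was not tested. The 2 cKO libraries lay close together, with a chi-square of 1.82 times its expectation over 14742 genes, against 32.6 times over 15223 genes for the 2 WT libraries. The labels do not say whether replicates were separate cultures or animals, and the 2 cKO libraries may be 1 RNA sample prepared in parts. The p-values measure the spread between these libraries, which for cKO may then be technical only, and an exact permutation test of 2 against 2 cannot go below p = 0.333. As a check of the cell type, macrophage genes stood high in all 4 libraries, with Lyz2 at a mean of 17270 TPM in WT and 21640 TPM in cKO, while the stromal gene Prrx1 read 40.1 and 87.4 TPM and the marrow stromal marker Lepr 0.44 and 0.24 TPM. Erythroid genes were at or near 0 and 5 of 6 neutrophil genes stood under 2 TPM, while the neutrophil and monocyte gene S100a8 read 17.2 and 18.7 TPM in WT and 5.02 and 2.37 TPM in cKO. In such mixed bulk samples, fewer cells of a type and less RNA per cell cannot be told apart.

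The synthesis genes stood lower in cKO. Of the 29, 16 were lower and 1 was higher at an adjusted p under 0.05, so that 17 of 29 were called, where 30.5% of all genes tested were called, 16.8% lower and 13.7% higher. Their median log2 fold change was -0.41, beside -0.00 over all genes tested. Since the list was chosen with earlier results of these data known, these counts describe it and do not test it. Of the 6 efflux genes, 3 were higher and 1 was lower, with a median of 0.23. Both cKO libraries lay below both WT libraries for 21 of the 29 synthesis genes, and above them for 3, where over all genes tested cKO lay below in 35% and above in 33.9%. The counts depended on the library set. With the 2 cKO libraries summed to 1 sample, which leaves the spread to the WT pair, 9 synthesis genes were lower (Mvk, Pmvk, Idi1, Fdps, Sqle, Cyp51, Hsd17b7, Stard4 and Scd1), none was higher, and 2 efflux genes were higher (Abca1 and Mylip), with adjusted p up to 0.0348 in edgeR. Without cKO replicate 1 the synthesis genes lower numbered 9, without cKO replicate 2 they numbered 10, without WT replicate 1 they numbered 19 and without WT replicate 2 they numbered 21. On log2(TPM + 1), limma called 10 synthesis genes lower and 2 higher: the calls of Hmgcs1, Fdft1, Sqle, Lss, Msmo1 and Insig1 were lost, and Scap was called higher. All 21 genes called in the full comparison kept their direction in each of the 14 alternative analyses. WT replicate 1 was above WT replicate 2 for 24 of the 29 synthesis genes, and for 7636 of the 15327 genes tested, so most of these genes also leaned the same way between the WT libraries.

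**Figure D1:**
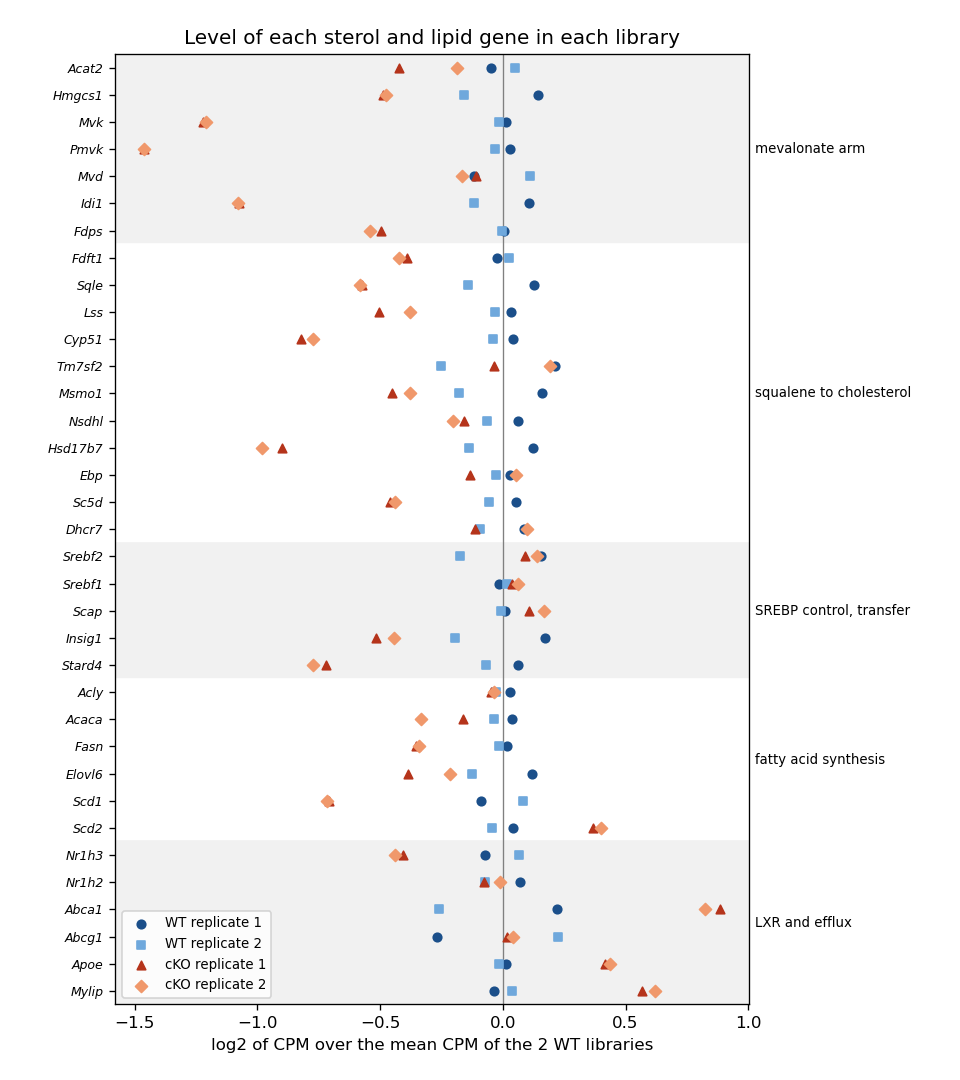
Level of the 35 genes in each of the 4 RNA-seq libraries, as log2 of CPM over the mean CPM of the 2 WT libraries, with genes grouped by role. For Pmvk, Mvk and Idi1 both cKO libraries sit more than 1 log2 unit left of the WT mean and overlie each other, while the 2 WT libraries stand apart for Abca1 and Abcg1.

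In the mevalonate arm, 5 of 7 genes were lower in cKO and none was higher. The deepest falls were in the kinases that phosphorylate mevalonate in succession. Pmvk, phosphomevalonate kinase (mm10 chr3:89454541-89469013), read 41.4 and 39.7 CPM in WT against 14.7 and 14.7 CPM in cKO. That is 0.363 times the WT level (log2 fold change -1.46, SE 0.08, adjusted p = 8.24e-05, edgeR), with cKO libraries that differed by less than either differed from WT. Mvk, mevalonate kinase (chr5:114444269-114460591), read 56.4 and 55.3 CPM in WT and 23.9 and 24.1 CPM in cKO, 0.431 times the WT level (log2 fold change -1.22, SE 0.07, adjusted p = 9.64e-05). Only 4.56% of all genes tested had a lower fold change than Pmvk, and 5.82% a lower one than Mvk. Idi1, which isomerizes isopentenyl diphosphate so that the units can be joined, read 82.9 and 71.1 CPM against 36.5 and 36.5 CPM (log2 fold change -1.08, SE 0.09, adjusted p = 0.000421). Its WT libraries differed from each other, but both were well above both cKO libraries.

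For the other mevalonate genes the differences were smaller or were not called. Hmgcs1, the synthase that makes hydroxymethylglutaryl-CoA, read 106.5 and 86.4 CPM in WT and 68.7 and 69.3 CPM in cKO (log2 fold change -0.48, SE 0.10, adjusted p = 0.0158, edgeR). Leaving out cKO replicate 1 gave an adjusted p of 0.0871 for Hmgcs1, and leaving out cKO replicate 2 gave 0.0785, while its log2 fold change was -0.32 without WT replicate 1. Fdps, farnesyl diphosphate synthase, stood at 64.5 and 64.1 CPM against 45.7 and 44.2 CPM, with little spread in either genotype (log2 fold change -0.52, SE 0.06, adjusted p = 0.00198). Acat2, the cytosolic thiolase that joins acetyl-CoA units, had values of 28.2 and 30.1 CPM in WT and 21.7 and 25.6 CPM in cKO. The groups did not overlap, but Acat2 missed the threshold (log2 fold change -0.30, 95% confidence interval -0.55 to -0.04, adjusted p = 0.0783). Mvd, mevalonate diphosphate decarboxylase and the step between Pmvk and Idi1, was the member whose groups overlapped, at 25.4 and 29.7 CPM against 25.5 and 24.5 CPM (log2 fold change -0.14, interval -0.38 to 0.11, adjusted p = 0.351). Summed over the 7 genes, the arm held 405.1 and 376.3 CPM in WT and 236.8 and 239 CPM in cKO.

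From squalene to cholesterol, 7 of 11 genes were lower and none was higher. Hsd17b7, a ketosteroid reductase needed to strip methyl groups from the sterol ring, had the largest change of these, at 82.5 and 68.8 CPM in WT and 40.5 and 38.3 CPM in cKO (log2 fold change -0.94, SE 0.10, adjusted p = 0.00114, edgeR). Cyp51, lanosterol demethylase, read 81.2 and 76.8 CPM against 44.7 and 46.2 CPM (log2 fold change -0.80, SE 0.07, adjusted p = 0.000421). For both genes the WT libraries were clearly above the cKO libraries. On log2(TPM + 1) the log2 fold change of Cyp51 was smaller, at -0.41 (adjusted p = 0.0437, limma). Cyp51 overlaps Akap9 on the opposite strand by 166 bases, and the strand setting of the counting was not given in the sources used here. Sqle, squalene epoxidase and an early oxygen-requiring step, read 74.9 and 62.1 CPM in WT and 46.0 and 45.8 CPM in cKO (log2 fold change -0.58, SE 0.10, adjusted p = 0.00703).

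Fdft1, Lss, Sc5d and Msmo1 fell by smaller amounts. Sc5d, a sterol desaturase near the end of the route, read 48.4 and 44.9 CPM in WT and 33.9 and 34.4 CPM in cKO (log2 fold change -0.45, SE 0.07, adjusted p = 0.00627, edgeR). Lss, lanosterol synthase, read 52.8 and 50.4 CPM against 36.4 and 39.6 CPM (log2 fold change -0.44, SE 0.08, adjusted p = 0.0074). In CPM neither gene had overlapping groups. In TPM the groups of Lss overlapped, at 30.1 and 38.0 TPM in WT and 35.3 and 21.3 TPM in cKO (adjusted p = 0.442, limma on log2(TPM + 1)). Fdft1, squalene synthase, read 32.8 and 33.9 CPM against 25.5 and 24.9 CPM (log2 fold change -0.41, SE 0.08, adjusted p = 0.01). It shares 767 bases with Ctsb on the opposite strand, which held a mean of 244900 counts against 869.1 for Fdft1, so its value is uncertain if strand was not used. Msmo1, methylsterol monooxygenase, read 82.4 and 65.3 CPM against 53.9 and 56.9 CPM (log2 fold change -0.42, SE 0.11, adjusted p = 0.0364), and its log2 fold change was -0.23 without WT replicate 1. The calls of Sc5d, Fdft1 and Msmo1 were lost when either cKO library was left out, where the spread comes from the WT pair alone. That of Lss was lost only without cKO replicate 1. With any 1 library left out, the log2 fold change ran from -0.505 to -0.39 for Sc5d and from -0.50 to -0.38 for Lss. It ran from -0.43 to -0.39 for Fdft1 and from -0.57 to -0.23 for Msmo1.

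The remaining enzymes of the route did not pass the test. Nsdhl, a sterol dehydrogenase, had a log2 fold change of -0.18 (adjusted p = 0.16, edgeR) with cKO below WT in all libraries. Ebp, a sterol isomerase, and Dhcr7, the reductase of the last step, had log2 fold changes of -0.04 and -0.00 with overlapping groups. Tm7sf2, a sterol reductase, was the least abundant gene of the set by counts, at 8.84 and 6.40 CPM in WT and 7.43 and 8.72 CPM in cKO, and it shares 532 bases with Vps51 on the same strand. The intervals of these log2 fold changes ran from -0.25 to 0.18 for Ebp, -0.27 to 0.26 for Dhcr7 and -0.37 to 0.53 for Tm7sf2. Of the 18 enzymes from Acat2 to Dhcr7, 12 were lower in all, with a median log2 fold change of -0.44.

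**Figure D2:**
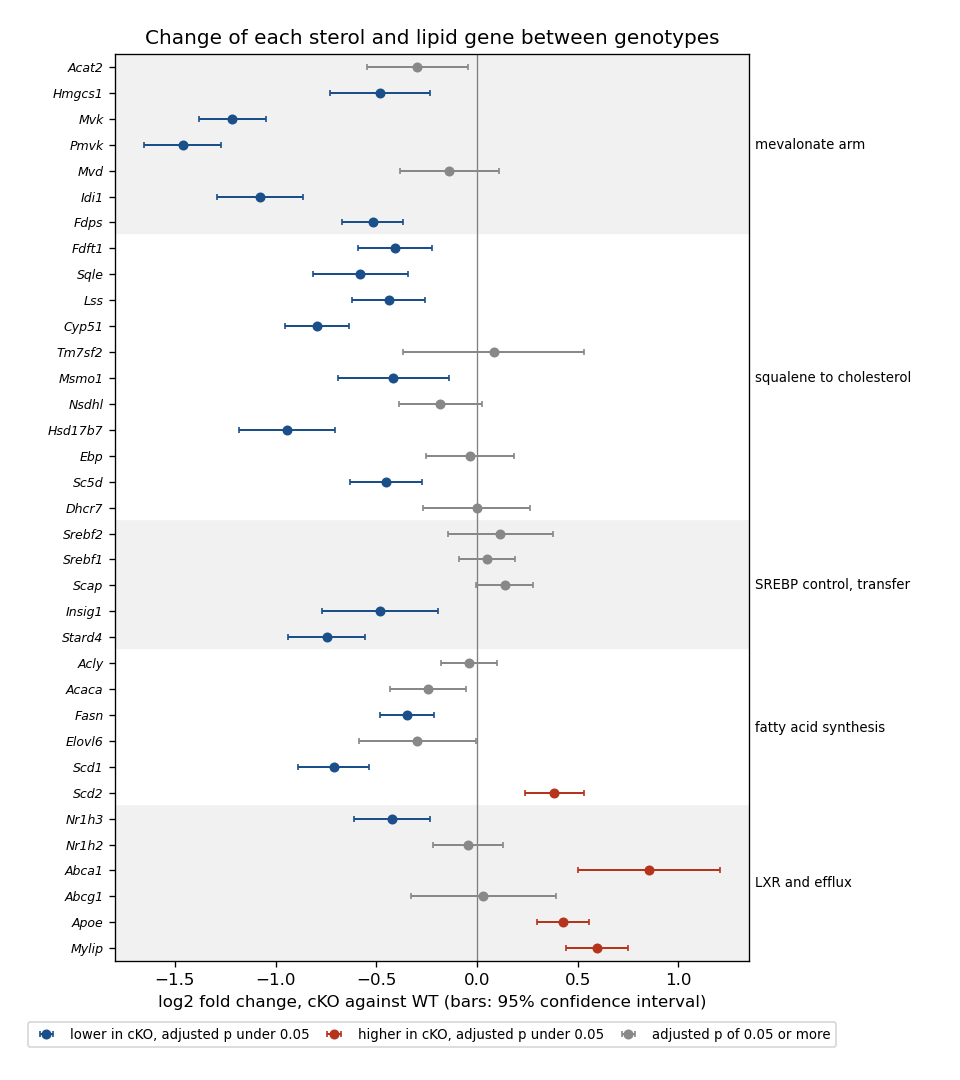
Fitted log2 fold change of the 35 genes, cKO against WT, with 95% confidence intervals, grouped by role and coloured by the edgeR call at an adjusted p under 0.05. The 12 sterol enzymes called all lie left of 0, and Scd2, Abca1, Apoe and Mylip are the 4 genes called on the right.

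The genes for the SREBP factors and their escort were not called. Srebf2, which encodes the main driver of sterol synthesis, read 133.1 and 106.1 CPM in WT and 127.3 and 131.9 CPM in cKO (log2 fold change 0.12, SE 0.11, adjusted p = 0.464, edgeR). Both cKO values lay inside the WT range, and the value depended on the WT library kept, at 0.30 without WT replicate 1 (adjusted p = 1.23e-12) and -0.04 without WT replicate 2 (adjusted p = 0.414). Srebf1, the driver of fatty acid synthesis, read 90.9 and 93.0 CPM in WT and 94.3 and 95.9 CPM in cKO (log2 fold change 0.05, interval -0.09 to 0.19, adjusted p = 0.57). Scap, the escort of both precursors, read 103.5 and 102.3 CPM against 110.9 and 115.6 CPM (log2 fold change 0.14, interval -0.00 to 0.28, adjusted p = 0.126). Scap was called higher in 4 of the 14 alternatives: without WT replicate 1 (adjusted p = 0.000527), without WT replicate 2 (adjusted p = 0.0055), and in limma on TPM with either pseudocount (0.30 and 0.29, adjusted p = 0.0478 and 0.0479). Transcript counts do not show how much of the SREBP protein was cleaved.

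Insig1, which retains SCAP and is itself a known SREBP target, was lower. It read 146.4 and 113.5 CPM in WT and 90.8 and 95.6 CPM in cKO (log2 fold change -0.48, SE 0.12, adjusted p = 0.0266, edgeR). The WT libraries were spread, but both were above cKO, and the adjusted p was 0.133 without cKO replicate 1 and 0.0807 without cKO replicate 2. Without WT replicate 1 the log2 fold change of Insig1 was -0.27. Stard4, a cytosolic carrier that moves cholesterol between membranes and also a known SREBP target, read 52.7 and 48.2 CPM against 30.7 and 29.5 CPM, with no overlap (log2 fold change -0.75, SE 0.08, adjusted p = 0.00113).

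The fatty acid genes were divided, with 2 of 6 lower, 1 higher and 3 not called. The stearoyl-CoA desaturases, which put the double bond into saturated fatty acids, moved in opposite directions. Scd1 (mm10 chr19:44394451-44407709) read 312.8 and 351.7 CPM in WT and 203.4 and 202.2 CPM in cKO (log2 fold change -0.71, SE 0.07, adjusted p = 0.00104, edgeR). Scd2, its neighbour at chr19:44293676-44306864, read 273.7 and 257.5 CPM in WT and 343.1 and 350.4 CPM in cKO (log2 fold change 0.38, SE 0.06, adjusted p = 0.00554). The ratio of Scd1 to Scd2 CPM was 1.14 and 1.37 in the WT libraries and 0.593 and 0.577 in the cKO libraries, so Scd1 was the larger of the pair in WT and the smaller in cKO. With any 1 library left out, the log2 fold change of Scd2 ran from 0.34 to 0.44. Its call was lost when either cKO library was left out, where the spread comes from the WT pair alone. The related Scd3 and Scd4 had no more than 8 counts in any library. How reads matching more than 1 of these related genes were counted, Scd1 and Scd2 included, was not given in the sources used here.

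Fasn, the synthase that builds palmitate, read 254.9 and 248.8 CPM in WT and 197.3 and 198.5 CPM in cKO (log2 fold change -0.35, SE 0.06, adjusted p = 0.00593, edgeR). Its groups were tight and did not overlap, but the adjusted p was 0.151 without cKO replicate 1 and 0.142 without cKO replicate 2. Acaca, the carboxylase that makes malonyl-CoA, read 76.3 and 72.6 CPM against 66.7 and 59.1 CPM, just outside the threshold (log2 fold change -0.25, adjusted p = 0.0585). Elovl6, the elongase of palmitate, had a log2 fold change of -0.30 (adjusted p = 0.112), and Acly, which supplies cytosolic acetyl-CoA from citrate, one of -0.04 (interval -0.18 to 0.10, adjusted p = 0.641). Together the 6 genes held 1140 and 1142 CPM in WT and 1016 and 1020 CPM in cKO, a narrower gap than that of the mevalonate arm. The fall of Scd1 and the rise of Scd2 partly offset each other in this sum, which does not show them.

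Among the efflux genes, 3 of 6 were higher in cKO, each induced by LXR in other settings. Abca1, the exporter that loads cholesterol onto lipid-poor apolipoproteins (mm10 chr4:53030787-53159895), read 143.5 and 102.9 CPM in WT and 227.5 and 218.3 CPM in cKO. That is 1.81 times the WT level (log2 fold change 0.85, SE 0.15, adjusted p = 0.00728, edgeR), and 95.1% of all genes tested had a lower fold change. Its WT libraries differed by more than those of most genes here, yet both lay below both cKO libraries. Mylip, the ligase that limits lipoprotein uptake, read 51.3 and 54.0 CPM in WT against 77.96 and 80.9 CPM in cKO, with both groups tight (log2 fold change 0.59, SE 0.06, adjusted p = 0.00124). Apoe, the lipoprotein component secreted by macrophages, stood first of all genes by mean TPM and took 1.84% and 1.79% of named counts in WT and 2.48% and 2.5% in cKO. It read 18510 and 18160 CPM in WT and 24490 and 24820 CPM in cKO (log2 fold change 0.43, SE 0.05, adjusted p = 0.00236), and its adjusted p was 0.111 without cKO replicate 1 and 0.125 without cKO replicate 2.

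Neither receptor gene was called higher. Nr1h3, which encodes LXRα, read 46.4 and 51.1 CPM in WT and 36.8 and 35.9 CPM in cKO, and was lower (log2 fold change -0.42, SE 0.08, adjusted p = 0.00942, edgeR). Its call was lost without cKO replicate 1 (adjusted p = 0.0889) and without cKO replicate 2 (adjusted p = 0.118). Nr1h2, which encodes LXRβ, read 90.3 and 81.8 CPM against 81.5 and 85.4 CPM, with overlapping groups (log2 fold change -0.04, adjusted p = 0.687). Abcg1, the exporter to mature lipoprotein particles, read 81.9 and 115.4 CPM in WT and 99.9 and 101.5 CPM in cKO. Both cKO values fell between the WT values, and the log2 fold change of Abcg1 was 0.03 (adjusted p = 0.897), -0.19 without WT replicate 1 (adjusted p = 1.42e-05) and 0.30 without WT replicate 2 (adjusted p = 3.24e-10).

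Further genes of the same pathways moved in both directions. Of 16 other sterol genes, 4 were lower and 1 was higher. Tmem97, a sterol-responsive membrane protein, read 30.8 and 31.5 CPM in WT and 19.6 and 19.0 CPM in cKO (log2 fold change -0.69, adjusted p = 0.00162, edgeR), and Insig2, the second INSIG gene, read 55.8 and 65.0 CPM against 44.9 and 47.1 CPM (log2 fold change -0.39, adjusted p = 0.0201). Of 16 other fatty acid genes, 3 were lower and 1 was higher. Thrsp, a lipogenic regulator, read 12.9 and 19.1 CPM against 6.48 and 6.90 CPM (log2 fold change -1.25, adjusted p = 0.0057), and its paralog Mid1ip1 read 41.2 and 47.5 CPM against 69.1 and 68.5 CPM (log2 fold change 0.63, adjusted p = 0.00278). So this paralog pair, like the desaturases, was divided. Me1, the malic enzyme that supplies NADPH, was lower (log2 fold change -0.40, adjusted p = 0.0419). Of 12 other efflux genes, 3 were higher, 1 was lower and 8 were not called. Their log2 fold change was below 0 for 7 and above it for 5, with a median of -0.01. Pltp, a phospholipid transfer protein, read 42.1 and 28.7 CPM in WT and 69.5 and 65.0 CPM in cKO (log2 fold change 0.92, adjusted p = 0.0089). Ncor1, a nuclear receptor corepressor, was also higher (log2 fold change 0.28, adjusted p = 0.0126). Other genes called in these lists, named after their values were seen, were Npc2, Slc25a1 and Scarb1, lower, and Npc1, higher, with log2 fold changes from -0.31 to 0.32. These counts stand beside the same backgrounds of 16.8% lower and 13.7% higher.

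Levels were also compared per transcript length. Mean TPM in WT ran from 10.5 for Tm7sf2 to 83.0 for Fdps among the 18 enzymes, and from 5.09 for Elovl6 to 93.4 for Scd1 among the fatty acid genes. Mean TPM of Mvk fell from 64.0 in WT, the next level below Fdps, to 29.8 in cKO, and that of Pmvk from 56.7 to 22.1. In cKO the order of the fatty acid genes changed at the top, with Scd2 at a mean of 92.0 TPM and Scd1 at 61.1 TPM. Apoe, at a mean of 32080 TPM in WT and 46480 TPM in cKO, was far above every other gene of the set, and the next efflux level in WT was 82.9 TPM for Nr1h2. Abca1 rose from a mean of 16.1 to 30.7 TPM.

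**Figure D3:**
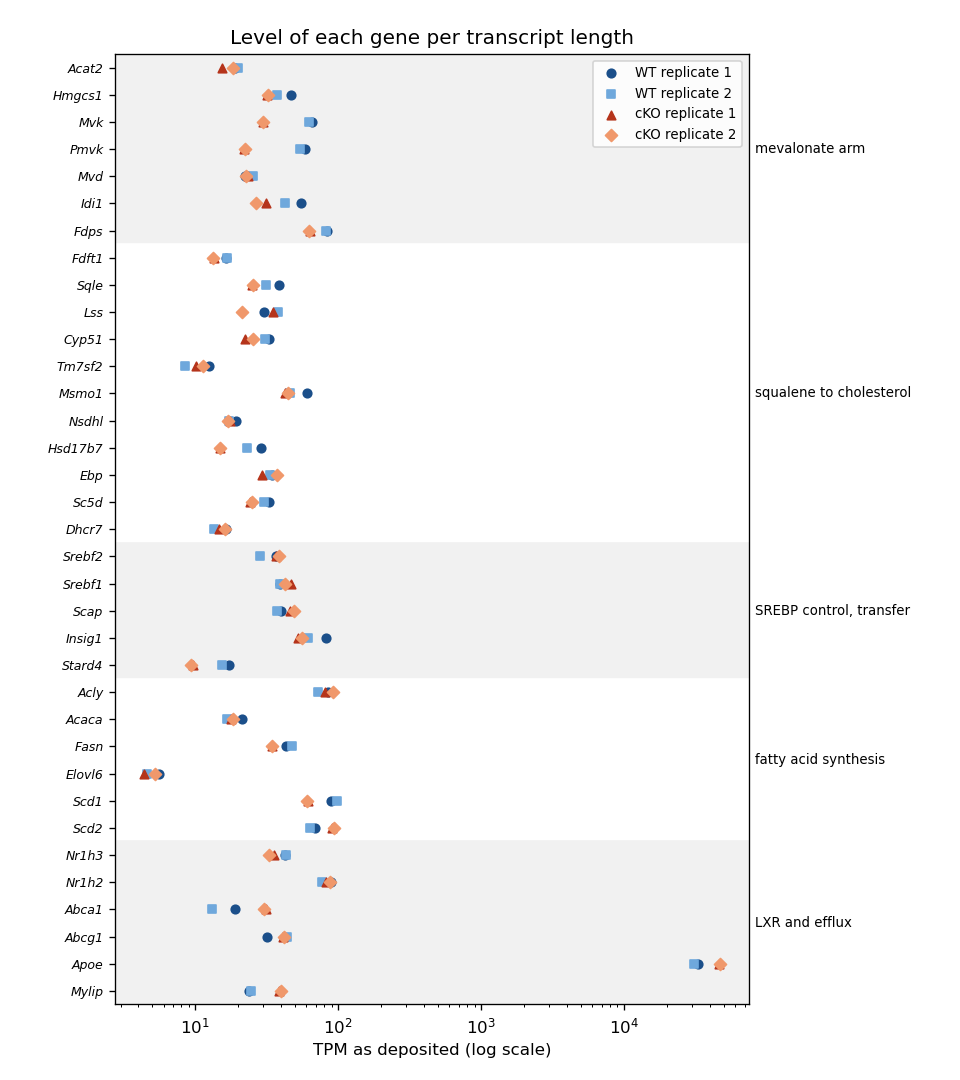
Deposited TPM of the 35 genes in each of the 4 RNA-seq libraries on a log axis, grouped by role. All but Apoe lie under about 100 TPM, and Apoe stands alone between 31080 and 46933 TPM.

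The m6A map of wild-type cells placed marks on few of the synthesis genes. Of the 35 genes, 34 could be placed on the mm9 annotation by gene ID, all but Hmgcs1. Together 10 genes (29.4% of those placed) held the summit of at least 1 of the 10160 peaks, and of 14118 tested genes placed the same way 40.1% did. Among the 9863 genes with at least 234.5 mean counts, the lowest mean of the set, 49.3% held a peak. Peaks lay on 6 of 28 synthesis genes (Sqle, Msmo1, Ebp, Dhcr7, Acaca and Elovl6) and on 4 of 6 efflux genes (Abca1, Abcg1, Apoe and Mylip). Neither Mvk, Pmvk nor Idi1, with the largest falls, held a peak, and none of Srebf1, Srebf2, Scap and Insig1 did. The peaks are 1 list for all 4 MeRIP libraries of WT cells, so they carry no replicate error. A gene with no peak is a gene credited with none on this list at this depth.

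The 13 peaks were 200 to 790 bases long. By the position of the summit, 5 lay in coding sequence, 5 in the 3′UTR, 2 in the 5′UTR and 1, on Dhcr7, in an exon of another transcript. Of the 12 summits on the chosen transcript, 7 lay within 200 nt of the stop codon. Fold enrichment over local background ran from 2.19 to 9.37, with a median of 3.87 beside 4.03 over all peaks. Abca1 had 2 peaks: that at chr4:53172663-53172862 in the 5′UTR had a fold enrichment of 9.37, and that at chr4:53046447-53047073 had a fold enrichment of 3.69 with its summit 22 nt before the end of the coding sequence. The pileup of the 5′UTR peak was only 29, beside a median of 60 over all peaks. A coding peak on Elovl6, with a fold enrichment of 7.03, had a pileup of 13. The Apoe peak, at chr7:20281718-20282507, had the highest pileup of all peaks, 348 fragments, and the lowest fold enrichment of the 13, 2.19, in the most abundant transcript of the table. Mylip had a 3′UTR peak at chr13:45505726-45506163 with a fold enrichment of 4.32, and Msmo1 a coding peak at chr8:67197749-67198023 with 2.93.

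**Figure D4:**
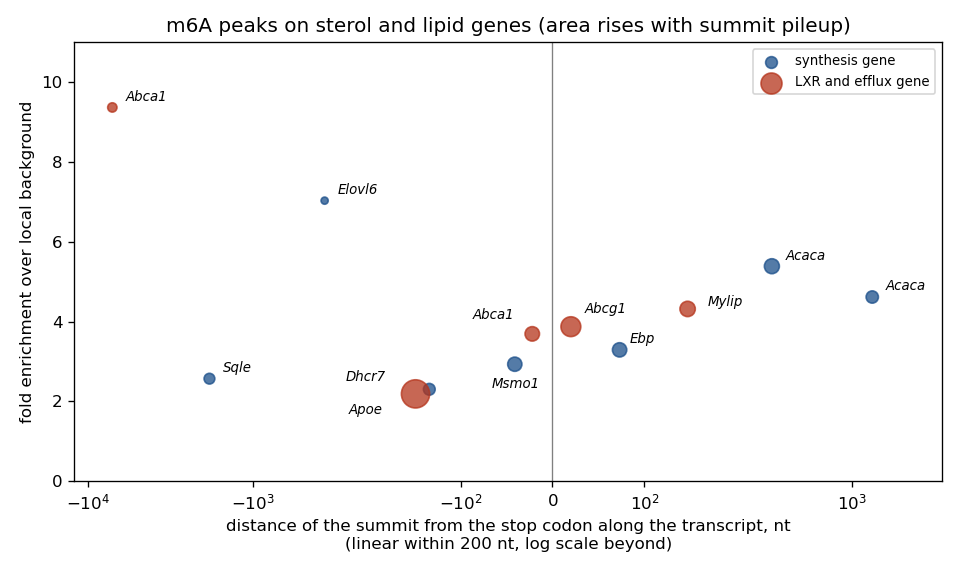
The 12 m6A peaks with a summit on the chosen transcript of a gene, by distance from the stop codon in nt along the transcript (linear within 200 nt, log scale beyond) and by fold enrichment, with point area rising with summit pileup. The 7 points within 200 nt of the stop codon lie between 2.19 and 4.32. Elovl6 at 7.03 and the 5′UTR peak of Abca1 at 9.37 stand apart, with pileups of 13 and 29.

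METTL3 complexes methylate the A of a short motif of which GGAC is a common form. GGAC on the gene's strand was in 10 of the 13 peaks (76.9%), and in 86.7% of the 9397 peaks within genes. The GGAC nearest to the summit is given in capitals for peaks on 4 called genes, Abca1, Mylip, Msmo1 and Sqle, as 30 bases read 5′ to 3′ on the gene's strand from the mm9 genome at the positions given. The GGAC of the Apoe peak lay far from its summit, at -557 bases, and is not shown. The peaks cannot say which A was methylated.
Abca1, coding end, minus strand, chr4:53046892-53046921: atgaccacttaaaGGACctgtcactgcaca
Abca1, 5′UTR, minus strand, chr4:53172722-53172751: agcgagcgggccgGGACcggcagagcccac
Mylip, 3′UTR, plus strand, chr13:45506078-45506107: aggaagaactctgGGACacggacacattcc
Msmo1, coding end, minus strand, chr8:67197831-67197860: gataaactctttgGGACagatgcccagtat
Sqle, 5′UTR, plus strand, chr15:59147277-59147306: aactacattttggGGACattttaatcactg

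Set beside the expression calls, 2 of the 6 synthesis genes with a peak were lower in cKO and none was higher, and of the 22 without a peak 13 were lower and 1 was higher. Of the 4 efflux genes with a peak, 3 were higher, and of the 2 without a peak 1 was lower. The lower synthesis genes with a peak were Sqle and Msmo1, with fold enrichments of only 2.57 and 2.93. At a fold enrichment of at least 3, Sqle, Msmo1 and Apoe held no peak. The synthesis genes that still held one then included none that was lower. Over all genes tested and placed, 13.4% of those with a peak were lower and 22.7% higher, and 20.8% of those without a peak were lower and 8.83% higher. For lower calls the synthesis genes were split as all genes were, with a smaller share among those with a peak (33.3% against 59.1%), and for higher calls they were split the other way (0% against 4.55%, which is 1 gene). No test was made on groups of this size.

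Most sterol enzymes with a promoter sequence shared a sequence feature, in a list chosen by SREBP-driven role and not by promoter letters. RefSeq promoter sequences (GRCm38.p6, 250 bases before to 50 after the transcription start) were at hand for 28 of the 35 genes. The CCAAT box, the letters CCAAT on either strand and the core of the NF-Y motif, was in the promoters of 19 of 23 synthesis genes (82.6%), and in 1 of 5 efflux genes, Mylip. It was in at least 1 promoter of 14 of 15 sterol enzymes, all but Acat2, beside 42.4% of 10800 tested genes with a promoter sequence and 37.4% of all 32851 promoters. Fdps, Fdft1 and Sqle, all called lower, had no promoter sequence. Some genes have several starts, and counted by promoter 20 of 29 synthesis promoters held it. The sterol regulatory element core, TCACNCCAC on either strand, was in 1 gene, Hmgcs1, and in 1.41% of tested genes, and its longer form with a leading A, which contains that core, was in none. The LXR element of the DR4 kind, a direct repeat of AGGTCA with any 4 bases between, searched on both strands, was in none of the 28, and in 5 of 32851 promoters. A match is a description of letters in these windows, and no match says only that the exact letters are not in them.

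The CCAAT box nearest to the start is given in capitals (ATTGG where it lies on the opposite strand) for sterol enzymes that fell, and for Hmgcs1 the sterol regulatory element core, to set these shared letters beside the falls. Each is 30 bases of GRCm38.p6 from RefSeq, 5′ to 3′ on the gene's strand.
Pmvk, plus strand, chr3:89454393-89454422: aactcaggttggCCAATtcacagcatctag
Mvk, plus strand, chr5:114444243-114444272: tccagctctctgATTGGcctcaggaagaca
Idi1, plus strand, chr13:8885580-8885609: gtccaaggtgccATTGGctggcgaccgaca
Hsd17b7, minus strand, chr1:169969200-169969229: ggccgagccttgATTGGtcgaggtgcgcgt
Cyp51, minus strand, chr5:4104709-4104738: cgctgtccgccaCCAATctggtcctgagat
Sc5d, minus strand, chr9:42264307-42264336: cgccggctgctgATTGGccggctgcctgca
Lss, plus strand, chr10:76531531-76531560: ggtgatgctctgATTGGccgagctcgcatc
Msmo1, minus strand, chr8:64733616-64733645: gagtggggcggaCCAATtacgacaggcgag
Hmgcs1, sterol regulatory element core, plus strand, chr13:119690204-119690233: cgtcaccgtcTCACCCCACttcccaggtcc
In Mvk and Idi1 the box shown begins 14 bases before the start, in Hsd17b7 12 bases, in Sc5d 24 bases, in Cyp51 29 bases, in Msmo1 55 bases, in Lss 62 bases and in Pmvk 136 bases before it. Of the 6 enzymes that did not pass the test, all but Acat2 also held a CCAAT box (Mvd, Tm7sf2, Nsdhl, Ebp and Dhcr7), so the motif did not set the called enzymes apart.

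Markers of other cell types moved between the genotypes beside these genes. Of 10 macrophage genes, 4 were higher in cKO (C1qa, C1qb, C1qc and Ptprc, with log2 fold changes of 0.50, 0.29, 0.33 and 0.42) and none was lower, and the summed level was 19750 and 24330 CPM in WT and 25850 and 26040 CPM in cKO. Csf1r, Cd68, Cd14, Itgam and Adgre1 were not called, with log2 fold changes from -0.04 to 0.14. Lyz2 made up most of the macrophage sum and was not called either (log2 fold change 0.22, adjusted p = 0.342, edgeR). It read 10980 and 15930 CPM in WT and 15630 and 15710 CPM in cKO. Of 10 stromal genes, 4 were higher (Prrx1, Pdgfra, Pdgfrb and Thy1) and 4 were lower (Cxcl12, Eng, Nt5e and Ly6a), with a summed 1059 and 946 CPM in WT and 1119 and 1111 CPM in cKO. All 6 osteoblast genes were lower, with a summed 319.1 and 401.7 CPM in WT and 175.5 and 178.5 CPM in cKO. Of 8 adipocyte genes, 3 were higher (Fabp4, Plin1 and Adipoq, with log2 fold changes of 1.08, 0.66 and 0.65). Another 3 were lower (Plin4, Cidec and Retn, with log2 fold changes of -1.735, -2.54 and -2.40). The sum of the 8 was 230.4 and 229.4 CPM against 225.6 and 227.2 CPM, and does not show these opposed moves. Endothelial genes summed to 3.64 and 3.22 CPM in WT and 17.1 and 14.5 CPM in cKO, and 2 of their 5 genes, Kdr and Emcn, were higher and made up most of the sum. Pecam1 (0.266 and 0.248 CPM against 0.165 and 0.157 CPM) and Cdh5 (0.414 and 0.389 CPM against 0.165 and 0.188 CPM) lay lower in both cKO libraries, Cdh5 not being called and Pecam1 falling under the filter. The 6 neutrophil genes summed to 3.14 and 4.28 CPM in WT and 1.11 and 0.91 CPM in cKO, most of it S100a8, which was lower (log2 fold change -2.43, adjusted p = 0.00475). The part of these shifts in the sterol and lipid values was not tested.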

How the data were processed

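Bone marrow MSCs were profiled by RNA-seq (2 WT and 2 cKO libraries) and by MeRIP-seq of wild-type cells (2 inputs and 2 immunoprecipitates). For RNA-seq the authors enriched poly(A) RNA, made libraries with a NEBNext Ultra kit and mapped reads with HISAT2 2.0.4. The authors deposited 1 table with estimated counts per gene, the counting method being not given in the sources used here, and with values headed FPKM that sum to the same total in every library and were read as TPM. The submitters' processing notes also name TopHat, MACS2, mm10 and mm9. The m6A peaks were deposited as 1 list, whose pileup signal, fold enrichment over local background and −log10 q values come from the peak caller, per the file headers in the MACS2 layout. The list does not say whether replicates were pooled. Its positions are on mm9 and those of the expression table on mm10.

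Estimated counts were rounded. Entries with no gene name (0.11% to 0.125% of counts) were left out, and no column of per-sample values was unused. Low-count genes were removed by filterByExpr and libraries were scaled by TMM. Genotype, the only term, was tested across the 4 libraries by the two-sided quasi-likelihood test of edgeR 4.0.16 in R 4.3.3. P-values were Benjamini-Hochberg adjusted over all genes tested, with calls under 0.05, and intervals are 95%. Standard deviations of 2 libraries were not used; both values are given in their place. Alternatives were edgeR with a replicate block, other scalings or no filter, DESeq2 1.42.0, limma 3.58.1 and an ordinary linear model on log2(TPM + 0.1) or log2(TPM + 1), each library left out, and the cKO pair summed. Replicate numbers did not pair the libraries (correlation of replicate differences between genotypes 0.0264 across genes).

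Gene IDs were placed on the mm9 annotation (GENCODE vM1), and a gene held a peak when its span held the summit. A summit within several genes was credited only to the one with the highest mean count. Fdft1, Tm7sf2 and Cyp51 each overlap a gene with more counts, so a summit in the shared bases would not be credited to them. Promoters came from a RefSeq table (GRCm38.p6). All 35 genes are named, with each library's value for those called and for the regulators. From the other pathway lists up to 3 called genes with the largest fold change are named, and 2 genes that this rule names are not reported here. The genes, lists and markers were chosen with earlier results of these data known.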

Additional observations from a re-analysis of the deposited data

How the results depend on the processing

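Depth limits little for these genes, since the lowest mean count of the set was 234.5, and the spread between 2 libraries a group sets the precision. With a replicate block, 18 synthesis genes were lower and 1 was higher, and the block brought in Acat2 (adjusted p = 0.0441) and Acaca (adjusted p = 0.0386). The numbers do not pair the libraries. No other call changed with the block. The 3 other scalings and DESeq2 gave the same 16 lower and 1 higher synthesis genes by count, and 1 lower and 3 higher efflux genes. On the TPM scale limma called 10 synthesis genes lower and 2 higher with either pseudocount, and the share of calls over all genes that were higher was 55.2% with a pseudocount of 0.1 and 55.7% with 1, beside 44.9% in the edgeR fit, while the median log2 fold change over all genes reached 0.10. The median of the efflux genes was 0.34 in limma with either pseudocount and in the ordinary linear model, and that of the synthesis genes was -0.29 in limma with a pseudocount of 1 and in the ordinary linear model. The ordinary linear model called 65 genes in all, 4218 having an unadjusted p under 0.05, and 0 synthesis genes and 0 efflux genes in either direction. With the cKO libraries summed, 2012 genes were called, 9 synthesis genes lower and 0 higher, and 2 efflux genes, 0 of them lower. The cause of these differences was not tested beyond what each setting leaves out.

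Leaving out 1 library gave 1867 to 8750 calls over all genes, with the fewest without a cKO library and the most without a WT library, since the remaining spread then comes mainly from the other genotype. Synthesis genes called then ranged from 9 to 23, those lower from 9 to 21 and those higher from 0 to 4, and efflux genes called from 2 to 6, those lower from 0 to 2. The median of the efflux genes ranged from 0.22 to 0.35 and that of the synthesis genes from -0.42 to -0.32. None of the 21 called genes changed direction. In 7 uncalled genes 23 values changed sign. Dhcr7 was at 0.0020 with no filter, 0.0040 with RLE factors, 0.028 with plain totals, 0.0043 in DESeq2, 0.058 and 0.054 in limma with pseudocounts of 0.1 and 1, 0.054 in the ordinary linear model and 0.018 with cKO summed, and between -0.11 and 0.10 without 1 library. Acly was at 0.14 and Nr1h2 at 0.036 in limma with either pseudocount and in the ordinary linear model. Without 1 library, Tm7sf2 ranged from -0.12 to 0.35, Ebp from -0.13 to 0.057, Srebf2 from -0.039 to 0.30, Nr1h2 from -0.11 to 0.039 and Abcg1 from -0.19 to 0.30. Requiring a leading A in the sterol regulatory element left 0 promoters of 28. Of the peak settings, a fold enrichment of at least 3 left 7 genes with a peak, without Sqle, Msmo1 and Apoe, and the other 3 settings left 10.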
